A study of Mus musculus with 8 samples.

Results

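The 10 genes followed here build the core, the membrane linkage and the tip links of intestinal microvilli and were measured in fetal mouse small intestine, taken 18.5 days post coitum. They are Vil1, Espn, Pls1, Eps8, Ezr, Myo1a, Cdhr2, Cdhr5, Ush1c and Myo7b, taken by gene symbol. Every probe set (a group of short probes read as 1 value) whose annotation gives exactly 1 of these symbols and no other was used, which gave 13 of the 45101 probe sets on the array, and 10 of the 18193 genes with such a probe set. Eps8 had 3 of them, Ezr had 2 and each other gene had 1. The study compared 4 Plagl2 knockout (KO) intestines with 4 wild-type (WT) intestines, with 1 Affymetrix MOE430 2.0 array for each. Plagl2 is a DNA-binding zinc finger protein of the PLAG family, and the series title places the study in the metabolism of chylomicrons, the particles that carry absorbed fat. The labels give no strain, sex or litter, do not describe the deleted allele, and name no treatment. Whether litters differed is not stated, so the tests speak only to the spread among these 8 intestines.

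A microvillus of an enterocyte, the absorptive cell of the gut, is a finger of membrane around a bundle of parallel actin filaments. Villin, espin, plastin 1 and EPS8 bundle, sever or cap the filaments, while ezrin and the motor protein myosin 1a tie the bundle to the membrane. At the tips, the cadherins CDHR2 and CDHR5 bind each other between neighbouring microvilli. The scaffold harmonin (Ush1c), the motor myosin 7b and the scaffold ANKS4B hold these cadherins to the core and help to pack the brush border.

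Plagl2 itself was near background in every KO array. Probe set 1417517_at gave 6.25 ± 3.4 in KO and 783.5 ± 58.9 in WT intestine (signal, mean ± SD, n = 4 each). The extraction text of all 8 samples mentions wild-type intestines only, whereas titles and source names give 4 knockouts, and the Plagl2 signal follows the titles. KO replicates 2 and 3 had Xist signals of 1828 and 1410, against 20 to 47 in the other 6 arrays, so sex was not balanced. Control probe sets at the 3' and 5' ends of the same transcripts, a measure of RNA integrity, differed (3' minus 5') by a mean log2 of 0.017 to 0.098 in KO and -0.055 to 0.007 in WT arrays. WT replicate 3 stood apart from its group on the principal component that separated the genotypes (44.3% of the variance), at 21.9 against 43.3 to 44.7 in the other WT arrays and -40.7 to -35.7 in the KO arrays. Results that rest on that array are therefore also given without it. The tissue label was borne out by epithelial genes, with Epcam at 4308 to 4823 in KO and 4594 to 5041 in WT arrays.

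Of the 10 genes, Myo1a alone passed the test, as higher in KO intestine. All 13 probe sets passed the filter on low signal, and the dimmest of them averaged 86.2 over the 8 arrays. By limma with Benjamini-Hochberg adjustment over all 27022 tested probe sets, 1 gene was called higher and 0 were called lower at an adjusted p under 0.05. Among all 12838 tested genes, each given by its brightest tested probe set, 6.6% were called higher and 8.5% lower. At an unadjusted p under 0.05, 4 of the 10 genes were lower (Cdhr2, Ush1c, Pls1 and Ezr), against 15.0% of all genes, and 1 was higher (Myo1a), against 14.7%. Log2 fold changes (KO over WT, of signal + 16) were below 0 for 8 of the 10, with a median of -0.32, while 46.7% of all tested genes were below 0 and their median was 0.03. In whole tissue, a lower signal from fewer enterocytes and one from less RNA per enterocyte cannot be told apart.

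**Figure D1:**
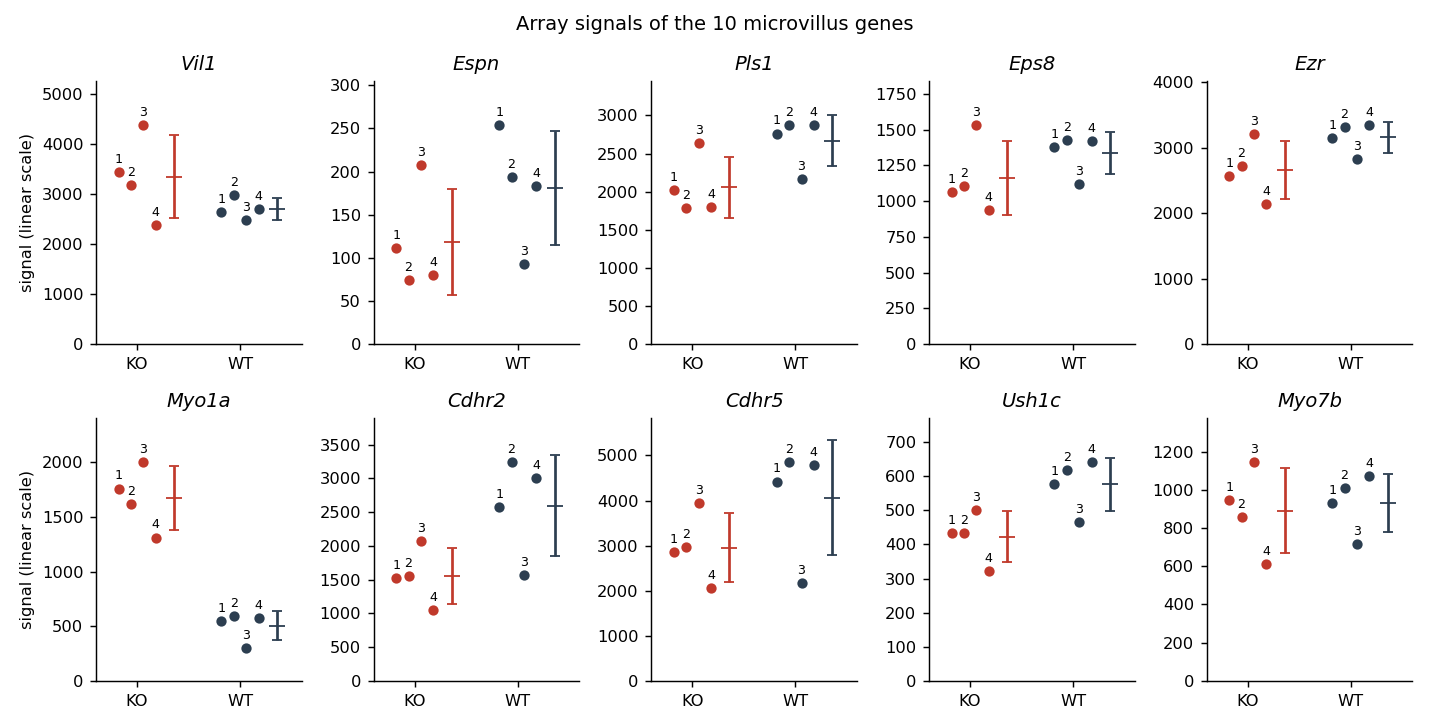
Signal (linear scale, arbitrary units) of each microvillus gene in 4 KO arrays (red, left) and 4 WT arrays (dark, right), with replicate numbers, and the mean and SD of each group as a bar, for the probe set that represents the gene. Myo1a runs from 1311 to 2005 in KO and from 305 to 594 in WT arrays, while the groups of the other 9 genes overlap.

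Myo1a (probe set 1429805_at), the class I myosin that links the actin core to the membrane along the length of the microvillus, gave signals of 1759, 1614, 2005 and 1311 in KO replicates 1 to 4, against 547, 594, 305 and 574 in WT replicates 1 to 4. The lowest KO array was thus far above the highest WT array. Myo1a averaged 1672 ± 290 in KO and 505 ± 135 in WT intestine (SD, n = 4 each), a ratio of 3.31. Its log2 fold change was 1.72 ± 0.20 (SE, 95% interval 1.29 to 2.16, adjusted p = 0.00013). Of the 12838 tested genes, 82 including Myo1a had a log2 fold change at least as high. The call held in all 22 other fits, with log2 fold changes of 1.28 to 1.83. The lowest of these came from the fit that had the 3'/5' difference as a covariate (adjusted p = 0.0159). Without WT replicate 3, the lowest WT array, the log2 fold change was 1.51 (adjusted p = 2.16e-05). That was the smallest value with 1 array left out. Non-overlapping groups with KO above WT occurred in 8.88% of all tested genes, and with KO below WT in 11.1%.

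Ezr encodes ezrin, which joins membrane proteins to actin filaments. Its bright probe set (1450850_at) gave 2563, 2729, 3214 and 2144 in KO arrays, against 3150, 3311, 2826 and 3350 in WT arrays. The groups overlapped through KO replicate 3, which lay above WT replicates 1 and 3. The log2 fold change was -0.26 ± 0.11 (SE, 95% interval -0.51 to -0.01, adjusted p = 0.182). The second Ezr probe set (1456725_x_at) was dim, at 25 to 95 in KO and 41 to 165 in WT arrays, and its 95% interval of -1.36 to 0.23 left the direction unset. For the bright probe set the log2 fold change was -0.35 without KO replicate 3, which passed (adjusted p = 0.0417), and -0.16 without KO replicate 4 (adjusted p = 0.372). The 2 membrane linkers thus differed in outcome, Myo1a being called and Ezr not.

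Among the genes of the actin bundle, villin was the 1 with a higher mean in KO intestine. Vil1 (1448837_at), the classical bundling and severing protein of the brush border, gave 3440, 3190, 4383 and 2382 in KO arrays, against 2640, 2982, 2478 and 2709 in WT arrays. In all, 3 KO arrays lay above all WT arrays and KO replicate 4 lay below them, so the groups overlapped. The log2 fold change of Vil1 was 0.28 ± 0.15 (SE, 95% interval -0.05 to 0.60, adjusted p = 0.273). Without KO replicate 4 it was 0.43 and passed (adjusted p = 0.0311), and without KO replicate 3 it was 0.14 (adjusted p = 0.511). Without the 2 KO arrays with Xist signal it was 0.086 (adjusted p = 0.77). The direction of the difference was thus the same and its size rested on single KO arrays.

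Pls1 (1460406_at), which encodes plastin 1 (also called fimbrin), gave 2016, 1783, 2636 and 1795 in KO arrays, against 2763, 2873, 2171 and 2876 in WT arrays. The groups overlapped only because KO replicate 3 lay above WT replicate 3. The log2 fold change was -0.38 ± 0.13 (SE, 95% interval -0.68 to -0.09, adjusted p = 0.0909). Without WT replicate 3 it was -0.48 (adjusted p = 0.0256), and without KO replicate 3 it was -0.51 (adjusted p = 0.0119). Without KO replicate 4 it was -0.32 (adjusted p = 0.185).

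Eps8 encodes a protein of the microvillus tip that caps and bundles filaments. The values of its 3 probe sets pointed the same way, with log2 fold changes of -0.22 (1422824_s_at), -0.35 (1422823_at) and -0.43 (1425733_a_at). Adjusted p-values were 0.368, 0.225 and 0.0932 in the same order. The brightest of them gave 1062, 1104, 1533 and 938 in KO arrays, against 1379, 1429, 1122 and 1417 in WT arrays, with overlap. Its log2 fold change was -0.30 without WT replicate 3 (adjusted p = 0.184), -0.36 without KO replicate 3 (adjusted p = 0.0542) and -0.13 without KO replicate 4 (adjusted p = 0.634). Espn (1423005_a_at), which encodes the bundling protein espin, was much dimmer than the others, at 111, 74, 207 and 80 in KO arrays and 254, 194, 93 and 183 in WT arrays. The spread within each genotype was wide, and the log2 fold change of -0.58 ± 0.31 (SE, adjusted p = 0.269) had a 95% interval of -1.26 to 0.10. Without WT replicate 3 it was -0.84 (adjusted p = 0.0645).

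The tip-link genes had lower means in KO intestine, by very different amounts. Cdhr2 (1440218_at), which encodes the longer of the paired cadherins, gave 1526, 1559, 2077 and 1049 in KO arrays, against 2572, 3248, 1563 and 3000 in WT arrays. All KO arrays lay below WT replicates 1, 2 and 4, and WT replicate 3 lay among the KO arrays. Cdhr2 averaged 1553 ± 420 in KO and 2596 ± 743 in WT intestine (SD, n = 4 each). Its log2 fold change of -0.72 ± 0.23 (SE, 95% interval -1.23 to -0.22) narrowly missed the threshold (adjusted p = 0.0658). It was -0.95 without WT replicate 3 (adjusted p = 0.00553) and -0.88 without KO replicate 3 (adjusted p = 0.0305). Without KO replicate 4 it was -0.55 (adjusted p = 0.143).

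Cdhr5 (1426014_a_at), which encodes the partner cadherin, gave 2869, 2968, 3942 and 2053 in KO arrays, against 4422, 4864, 2165 and 4780 in WT arrays. Here too 3 WT arrays lay above every KO array, and WT replicate 3 lay near the bottom of the KO range. The log2 fold change was -0.42 ± 0.25 (SE, 95% interval -0.97 to 0.13, adjusted p = 0.325). Without WT replicate 3 it was -0.70 (adjusted p = 0.0177), and without KO replicate 4 it was -0.26 (adjusted p = 0.582). Whether the cadherins were called lower thus depended on which array was left out.

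Ush1c (1450001_a_at), which encodes the scaffold harmonin, gave 434, 433, 502 and 323 in KO arrays, against 578, 619, 467 and 643 in WT arrays. The log2 fold change was -0.44 ± 0.14 (SE, 95% interval -0.75 to -0.13, adjusted p = 0.0721). It passed without WT replicate 3 (-0.53, adjusted p = 0.0229) and without KO replicate 3 (-0.52, adjusted p = 0.0376), but not without KO replicate 4 (-0.32, adjusted p = 0.145). Myo7b (1420426_at), which encodes the motor that carries the tip complex, gave 949, 857, 1148 and 611 in KO arrays, against 929, 1010, 719 and 1070 in WT arrays. The groups covered much the same range. Its log2 fold change of -0.08 ± 0.18 (SE, adjusted p = 0.817) had a 95% interval of -0.47 to 0.31, so a moderate change either way was not excluded by these arrays.

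**Figure D2:**
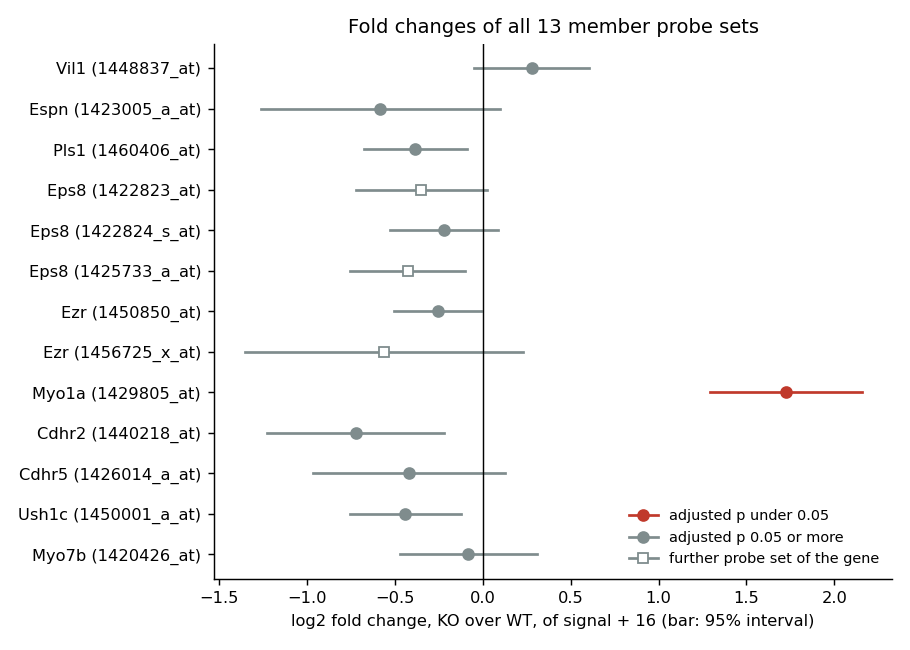
Log2 fold change (KO over WT, of signal + 16) of the 13 probe sets of the 10 genes, with 95% intervals from the limma fit. Myo1a at 1.72 is past the adjusted threshold (red), and the other 12 probe sets (grey), of which open squares are further probe sets of Eps8 and Ezr, are not.

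Terms for the Xist signal and the 3'/5' difference moved several of these values by over 1.5 times. With Xist as a covariate the log2 fold changes of Vil1, Eps8, Ezr, Cdhr5 and Myo7b were 0.11, -0.40, -0.42, -0.64 and -0.25. With the 3'/5' difference as a covariate those of Vil1, Espn, Cdhr2, Cdhr5, Ush1c and Myo7b were 0.11, -1.02, -1.16, -0.92, -0.67 and -0.39. Directions were the same as without these terms, and none of these values passed the threshold. The 3'/5' difference did not overlap between KO and WT arrays, so that fit cannot tell it apart from genotype. Xist signal was high in KO replicates 2 and 3 only, so the Xist term rests mainly on differences among KO arrays.

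The 10 genes varied together between arrays of the same genotype. KO replicate 3 had the highest KO signal for 10 of 10 genes and KO replicate 4 the lowest for 8 of 10, while WT replicate 3 had the lowest WT signal for 10 of 10. Among all tested genes, KO replicate 3 was highest in its group for 26.2%, KO replicate 4 lowest for 26.7% and WT replicate 3 lowest for 30.7%. The means of 7 enterocyte markers and of 10 general epithelial markers were also highest among KO arrays in replicate 3. Both means were lowest of their genotype in KO replicate 4 and WT replicate 3, so the pattern was not particular to these genes. On the log2 scale the mean deviation of the 10 genes from their own genotype was 0.42 in KO replicate 3, -0.38 in KO replicate 4 and -0.44 in WT replicate 3. It lay between -0.06 and 0.18 in the other 5 arrays. This array-to-array variation was as large as most of the differences between genotypes given above.

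Marker genes of the muscle and connective tissue around the epithelium deviated the opposite way in the same arrays. The mean log2 signal of 6 smooth muscle markers, none of them called, was 9.85 in KO replicate 3 and 10.76 in KO replicate 4, against 10.43 and 10.44 in the other KO arrays. In WT arrays it was 10.37 in replicate 3, against 9.60 to 10.02 in the others. The 6 mesenchymal markers were at 10.22 in KO replicate 3, 11.04 in KO replicate 4 and 10.71 in WT replicate 3, and the lowest adjusted p among them was 0.0859 (Col1a1, limma). Between genotypes (KO minus WT, two-sided exact permutation over arrays), the mean of the smooth muscle markers differed by 0.41 (p = 0.171) and that of the mesenchymal markers by 0.34 (p = 0.2). The 10 general epithelial markers differed by 0.15 (exact permutation p = 0.114), with 4 called higher and Krt18 lower, and 7 enterocyte markers by 0.13 (exact permutation p = 0.314), with 1 called higher (Anpep). Goblet and enteroendocrine markers did separate the genotypes. The 4 tuft cell markers did not (difference 0.04, exact permutation p = 0.8). Only 1 of those 4 passed the filter on low signal, so their mean says little about tuft cells. These p-values were not adjusted over the 15 marker lists examined. The mean of 6 goblet cell markers was 10.40 to 10.73 in KO and 9.39 to 10.31 in WT arrays (exact permutation p = 0.0286, the smallest possible). Muc2, Spink4 and Agr2 were called higher, and Tff3, Fcgbp and Clca1 were not called. The mean of 5 enteroendocrine markers was 6.74 to 7.22 in KO and 7.60 to 8.01 in WT arrays (exact permutation p = 0.0286), with 4 called lower. Liver markers were at 9.81 in KO replicate 4, where Alb reached 4646, against 4.57 to 7.11 in the other KO arrays and 4.93 to 5.96 in WT arrays. Pancreatic acinar markers were at 9.64 in KO replicate 1, 9.09 in WT replicate 2 and 8.67 in WT replicate 3. In the other arrays they were at 6.43 to 7.63. The part of tissue composition in the values of the 10 genes was not tested.

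**Figure D3:**
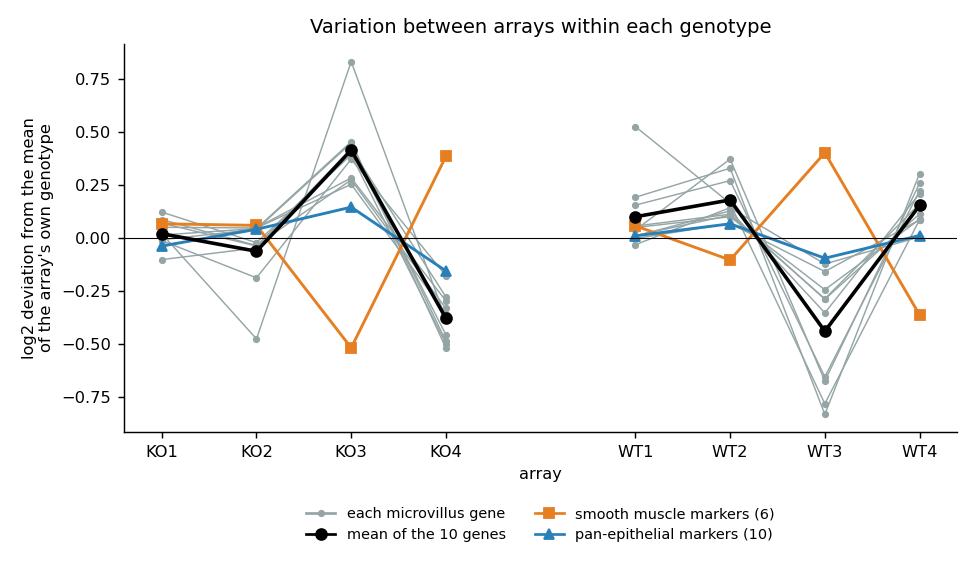
Log2 deviation of each array from the mean of its own genotype, for each of the 10 microvillus genes (grey), their mean (black), 6 smooth muscle markers (orange) and 10 general epithelial markers (blue), with KO arrays left and WT arrays right. The black line is at 0.42 in KO replicate 3, -0.38 in KO replicate 4 and -0.44 in WT replicate 3, and the orange line deviates the other way in these 3 arrays.

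Because the genes shared this variation, each was also expressed relative to Vil1 in the same array, as a log2 difference. Vil1 was chosen for this after the values were seen, and its own log2 fold change of 0.28 is part of every such difference. The level of a difference depends on the probes, so only its change between arrays is read. For Cdhr2 it was -1.16, -1.03, -1.07 and -1.17 in KO replicates 1 to 4, against -0.04, 0.12, -0.66 and 0.15 in WT replicates 1 to 4. The KO arrays, whose Cdhr2 signals had an SD of 0.40 on the log2 scale, thus agreed within an SD of 0.07 once set against Vil1, and no longer overlapped with WT arrays. The SD among KO arrays fell less for Pls1 (0.26 to 0.19) and Espn (0.60 to 0.35). Among WT arrays it fell from 0.47 to 0.38 for Cdhr2 and from 0.56 to 0.48 for Cdhr5. In WT replicate 3, Vil1 deviated from its group by -0.12, against -0.67 for Cdhr2 and -0.83 for Cdhr5. Vil1 thus carried little of the variation in that array.

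For Myo7b, which showed little difference by itself, the SD among KO arrays was 0.37 before and 0.04 after setting it against Vil1. Its difference from Vil1 was -1.94 to -1.84 in KO and -1.76 to -1.33 in WT arrays. Of the 9 other genes, Pls1, Eps8, Ezr, Cdhr2, Ush1c and Myo7b were lower relative to Vil1 in every KO array than in any WT array. Among the 12837 other tested genes, 13.6% were lower in this way and 2.4% higher. Those genes were not matched for varying together with Vil1 between arrays, so these shares are not a like-for-like comparison. Myo1a was higher relative to Vil1 without overlap, at -1.12 to -0.85 in KO and -2.96 to -2.21 in WT arrays. Cdhr5 overlapped through WT replicate 3 alone (-0.19, against -0.26 to -0.10 in KO arrays and 0.70 to 0.82 in the other WT arrays), and Espn also overlapped. Relative to Vil1, 7 of 9 genes thus separated the genotypes without overlap, as a description with no test. By its own signal, only Myo1a did so. The shift of Vil1 itself (0.28, adjusted p = 0.273, limma) lowers every difference. The separation of the lower genes therefore cannot be assigned to those genes rather than to Vil1. Myo7b differed between the genotypes by -0.36 relative to Vil1, but by only -0.08 in its own signal.

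**Figure D4:**
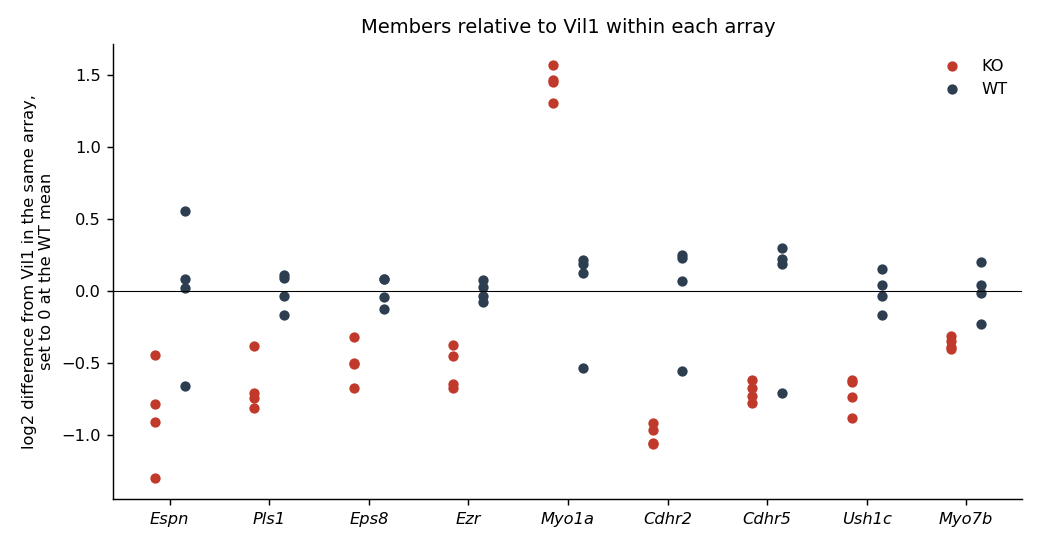
Log2 difference of each gene from Vil1 in the same array, shifted so that the WT mean of each gene is 0, for 4 KO arrays (red, left) and 4 WT arrays (dark, right). Myo1a lies above and 6 genes lie below the WT arrays in all KO arrays, while Espn and Cdhr5 overlap through a low WT point.

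Because Plagl2 encodes a DNA-binding factor, the promoters of the genes were read for PLAG family elements. RefSeq promoter windows (250 bases before to 50 after a transcription start, GRCm38.p6) matched 8 of the 10 genes with 10 windows, 3 of them for Espn. Shown are the called gene Myo1a, Cdhr2 with the lowest fold change, and Vil1, whose window holds a match. Capitals mark matches to GGGCCCC on either strand, the core of the element bound by the Plagl2 relative ZAC1 (Plagl1), and everything else is in lower case.
Myo1a, chr10:127705006-127705305, plus strand: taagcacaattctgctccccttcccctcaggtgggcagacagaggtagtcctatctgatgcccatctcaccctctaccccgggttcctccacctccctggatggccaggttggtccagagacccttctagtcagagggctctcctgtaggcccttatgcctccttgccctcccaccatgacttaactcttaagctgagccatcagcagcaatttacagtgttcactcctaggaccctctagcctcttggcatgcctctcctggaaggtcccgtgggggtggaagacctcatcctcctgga
Cdhr2, chr13:54701213-54701512, plus strand: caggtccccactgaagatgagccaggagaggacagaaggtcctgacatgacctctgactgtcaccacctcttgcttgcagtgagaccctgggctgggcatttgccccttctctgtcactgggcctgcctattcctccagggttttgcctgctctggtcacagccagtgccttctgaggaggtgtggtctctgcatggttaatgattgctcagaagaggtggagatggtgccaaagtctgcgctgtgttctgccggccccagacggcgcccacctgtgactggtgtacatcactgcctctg
Vil1, chr1:74409134-74409433, plus strand: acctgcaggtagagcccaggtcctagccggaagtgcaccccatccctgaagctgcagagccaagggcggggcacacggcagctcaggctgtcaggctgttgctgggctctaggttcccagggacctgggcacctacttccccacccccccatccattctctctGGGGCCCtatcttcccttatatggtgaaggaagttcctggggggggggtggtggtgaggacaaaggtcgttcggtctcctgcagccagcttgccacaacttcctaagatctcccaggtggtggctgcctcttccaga
The Vil1 window holds GGGCCCC 1 time, on the minus strand 87 bases before the start, and the other 9 windows do not hold it. Of all 32851 promoter windows, 6.66% hold this core. The bipartite element known for PLAG1, searched as GNGGC and GGG with 6 to 8 bases between them on either strand, was in the 3 Espn windows and in none of the other genes' windows, against 30.8% of all windows. Espn had matches at 5 places, of which 2 overlap each other in 1 window. The RefSeq record of Myo1a begins upstream of the start used here, so another promoter of that gene was not read.

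Other genes shared the array pattern of single members closely. By Pearson's r of log2 signal over the 8 arrays, which mixes the difference between genotypes with the variation within them, the gene most like Myo1a was Gm1123 (r = 0.996). Gm1123 gave 823, 731, 932 and 575 in KO arrays, against 224, 261, 125 and 295 in WT arrays, and was itself called higher (log2 fold change 1.73, adjusted p = 0.000339). Nearest to Cdhr2 was Unc5cl (r = 0.996), nearest to Cdhr5 was Sdf4 (r = 0.994) and nearest to Vil1 was Sowahc (r = 0.986). The arrays share the scaling and the tissue, so such values describe these 8 arrays only.

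Other genes listed with the microvillus, the terminal web beneath it and its membrane linkage were mostly not called. The list is wide and also holds the kinesin gene Kif12 and the leukocyte plastin gene Lcp1, whose place in these structures was not tested. Of 44 listed, 39 had a probe set of their own, and all 39 were tested. Of these, 6 were called higher and 3 lower, against 6.6% and 8.5% of all tested genes (15.1% either way), with a median log2 fold change of 0.15. Cobl, which encodes an actin nucleator, rose to 129, 125, 200 and 124 in KO arrays, against 67, 54, 63 and 86 in WT arrays (log2 fold change 0.93 ± 0.18 SE, adjusted p = 0.00475). With Xist as a covariate its log2 fold change was 0.77 (adjusted p = 0.0567), and with the 3'/5' difference it was 1.06 (adjusted p = 0.0558).

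The other 5 genes called higher encode motor, filament and scaffold proteins. They were the non-muscle myosins Myh14 (0.55 ± 0.14 SE) and Myh9 (0.47 ± 0.11), the tropomyosins Tpm1 (0.53 ± 0.11) and Tpm4 (0.36 ± 0.07), and the scaffold Slc9a3r2 (0.46 ± 0.13), which was named after its values were seen. Myh9 had 1 of 5 probe sets called and Slc9a3r2 1 of 6. Dimmer Tpm1 probe sets were not called (1423049_a_at at 0.51, adjusted p = 0.0646, and 1456623_at at 0.42, adjusted p = 0.217). Members of the same families that were not called were Myh10 (0.55, adjusted p = 0.313) and Tpm3 (0.11, adjusted p = 0.401), and the spectrin genes Sptan1 and Sptbn1 were at 0.25 and 0.19 (adjusted p = 0.112 and 0.18). Tmod3, also named after its values were seen, was not called by its brightest probe set (0.28, adjusted p = 0.0557). Its probe set 1423089_at was called higher (0.67, adjusted p = 0.000764). Tpm1 and Tpm4 are also made by muscle and connective tissue, whose marker values are given above. With the 3'/5' difference as a covariate, 0 of the 39 genes were called higher by limma (6 at an unadjusted p under 0.05). The 3'/5' difference did not overlap between KO and WT arrays, so that fit cannot tell it apart from genotype.

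Kif12, which encodes a kinesin motor, was called lower with the largest change in the list. It gave 26, 18, 7 and 14 in KO arrays, against 226, 345, 271 and 264 in WT arrays (log2 fold change -3.20 ± 0.20 SE, adjusted p = 1.35e-06). KO arrays were near background, so the size depends on the added 16, and was -4.12 with 1 and -2.08 with 64 added. A second, dimmer Kif12 probe set (17 to 35 in KO and 53 to 80 in WT arrays) was also called lower, with a log2 fold change of -0.89 (adjusted p = 0.0112). Lcp1, which encodes the plastin of leukocytes, a relative of Pls1, fell to 810 ± 141 in KO, against 1332 in WT intestine (log2 fold change -0.72 ± 0.12 SE, adjusted p = 0.00226). The mean log2 signal of 6 leukocyte markers was 7.08 to 7.77 in KO and 7.93 to 7.97 in WT arrays, with 1 of the 6, Csf1r, called lower (-2.38). The other 5 had log2 fold changes of -0.44 to -0.01 and were not called, so the lower mean rests largely on Csf1r. Their part in the Lcp1 result was not tested. The call of Lcp1 ended once the 3'/5' difference was a covariate (log2 fold change -0.41, adjusted p = 0.165).

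Myo1d, another class I myosin of the brush border, was called lower by both of its probe sets (-0.33 ± 0.09 SE, adjusted p = 0.0445, and -0.50, adjusted p = 0.0431), so the class I myosins Myo1a and Myo1d were called in opposite directions. The call of Myo1d by its brighter probe set ended in 10 of the 22 other fits. Anks4b and Calml4, which encode further parts of the tip-link complex and were named after their values were seen, had log2 fold changes of -0.28 each (adjusted p = 0.171 and 0.167).

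Among close relatives of the 10 genes, 18 of 21 had a probe set of their own and 13 passed the filter. Of these, 1 was called higher and 2 lower, with a median log2 fold change of -0.01. With 15.1% of all tested genes called (6.6% higher and 8.5% lower), this count is close to that of genes in general. Myo7a, the class VII myosin best known from hair cells of the inner ear and the nearest relative of Myo7b, fell in KO intestine. It gave 138, 115, 168 and 126 in KO arrays, against 396, 415, 376 and 447 in WT arrays (log2 fold change -1.48 ± 0.13 SE, adjusted p = 1.45e-05). WT replicate 3 was again the lowest WT array here, but lay close to the others, unlike for Cdhr2 and Cdhr5.

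Scin, which encodes scinderin, an actin-severing relative of villin, rose to 1780, 1365, 1765 and 1399 in KO arrays, against 497, 648, 965 and 584 in WT arrays (log2 fold change 1.24 ± 0.18 SE, adjusted p = 0.000643). The calls of Myo7a and Scin held in all 22 other fits. Myo1h, a class I myosin, was dim, at 42 to 61 in KO and 74 to 118 in WT arrays, and was called lower (-0.71 ± 0.17 SE, adjusted p = 0.0191). Its call ended in 6 of the other fits.

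**Figure D5:**
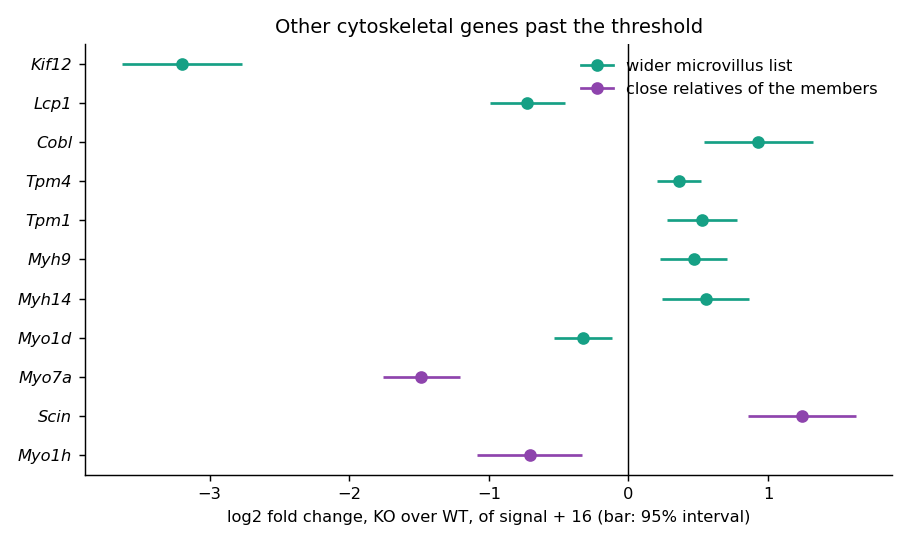
Log2 fold change (KO over WT, of signal + 16) with 95% intervals for the 8 genes of the wider microvillus list (green) and the 3 close relatives of the 10 genes (purple) that the naming rule takes among those past the threshold. Kif12 at -3.20 and Myo7a at -1.48 are the lowest, and Scin at 1.24 is the highest.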

How the data were processed

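Gene expression was measured on 8 Affymetrix arrays. Per the labels, total RNA was amplified into biotin-labelled cRNA. The table deposited by the authors gives 1 linear signal intensity per probe set. Each array's mean, trimmed by 2% at each end, was about 150.05, so the authors' scaling is in the values. How the signal was computed from the probes is not given in the sources used here. No detection calls were used. Single gene symbols came from the platform annotation, and those of all 13 probe sets matched the RefSeq table of GRCm38.p6 by Entrez ID.

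Signals were used as log2(signal + 16). Array medians differed by 0.158 at most, so no further normalization was applied. Without 64 controls and the dimmest 40% (mean under about 23.0), 27022 probe sets entered the linear model of limma 3.58.1 (R 4.3.3, lmFit, eBayes with intensity trend, genotype as the only term). Calls have a two-sided Benjamini-Hochberg adjusted p under 0.05. A gene is given by its brightest tested probe set. Fold changes are smaller than signal ratios where a group is dim. The number of arrays limits the precision. The smallest exact permutation p for 4 against 4 is 0.0286.

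The genes and lists were chosen with earlier results of these data known. Named are the 10 genes, Plagl2, the 1 gene most correlated with each of the 10, and up to 8 called genes of each further list by smallest p. Alternatives were other filters, offsets of 1 and 64, quantile normalization, centring on epithelial markers, the replicate block, Xist or the 3' to 5' ratio as covariates, no trend, array weights, gene means, a stricter threshold and arrays left out. Same-numbered KO and WT arrays did not deviate together (r = -0.274 to -0.011), so numbers were not taken as pairs.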

Additional observations from a re-analysis of the deposited data

Results flagged for a closer look

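Of 56 groups of 4 signals examined, 6 had 1 array whose gap to its neighbour exceeded Dixon's 95% critical value as a share of the group's range. Chance gives this in about 1 of 20 independent groups. These groups share the same arrays and hold genes that varied together, so their count cannot be set against that rate. In 4 of the 6, WT replicate 3 was the low array. It gave 2171 for Pls1 (others 2763 to 2876), 1122 for Eps8 by 1422824_s_at (others 1379 to 1429), 305 for Myo1a (others 547 to 594) and 2165 for Cdhr5 (others 4422 to 4864). KO replicate 3 gave 200 for Cobl, against 124 to 129 in the other KO arrays. The dim Plagl2 probe set 1417518_at gave 2 in KO replicate 3, against 7 to 8 in the other KO arrays, all near background.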

How the results depend on the processing

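Of the 10 genes, Myo1a was called higher in all 22 other fits, and at a threshold of 0.01 in the reported one. With 1 array left out, 1 to 2 genes were called higher (Vil1 being the second, without KO replicate 4) and 0 to 4 lower (Pls1, Cdhr2 and Ush1c without KO or WT replicate 3, with Ezr in the first case and Cdhr5 in the second). Without both WT replicate 3 and KO replicate 4, a fit added after the data were seen, 2 were higher and 4 lower (Pls1, Cdhr2, Cdhr5 and Ush1c). Calls over all 27022 probe sets also changed in these fits. They numbered 3238 in the reported fit, 3327 without KO replicate 3 and 3082 without KO replicate 4. Without WT replicate 3 they numbered 4246, and without both WT replicate 3 and KO replicate 4 they numbered 4329. Centring on the epithelial markers, of which 4 were themselves called higher and 1 lower, moved the median of all probe sets by -0.154 and the share of calls that were higher to 19.9%, against 44.1% without it, and called 5 of the 10 lower (Pls1, Eps8, Ezr, Cdhr2 and Ush1c). Relative to that shift their fold changes are as reported. Array weights called 4 lower (Espn, Pls1, Cdhr2 and Ush1c), and the 6 arrays without Xist signal called 1 lower (Ezr). With 1 array left out, the log2 fold change of Myo7b ran from -0.21 to 0.083 (above 0 only without KO replicate 4).

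In the wider list, 6 were higher and 3 lower. The higher count was 2 with centring, 2 with Xist as a covariate, 0 with the 3' to 5' ratio, 11 with array weights, 3 without the Xist arrays, 3 with gene means, 2 at the stricter threshold and 3 to 7 with 1 array left out. The lower count was 7 with centring, 1 with the 3' to 5' ratio, 5 with array weights and 2 to 5 with 1 array left out. Among close relatives, 1 was higher and 2 lower. The higher count was 2 with array weights and 1 to 2 with 1 array left out. The lower count was 4 with centring, 1 with the 3' to 5' ratio, 4 with array weights, 4 without both WT replicate 3 and KO replicate 4, 1 at the stricter threshold and 1 to 4 with 1 array left out. The cause of these changes was not tested, apart from the stricter threshold.

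With the replicate number as a block, whose pairing the data did not bear out, 1 gene of the wider list was higher (Cobl) and 1 close relative lower (Myo7a). Over all probe sets 3238 were called, against 1915 with the block, 1390 with the 3' to 5' ratio, 2024 with Xist as a covariate, 2145 without the Xist arrays, 1780 genes with gene means and 5215 with array weights. The spread between arrays of the same genotype limits the calls among the 10 genes.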
